A study of Mus musculus with 8 samples.

Results

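The retinoic acid and COUP-TF genes described here are 9 genes chosen by symbol from a table of 53465: *Aldh1a2*, *Cyp26b1*, *Dhrs3*, *Crabp1*, *Crabp2*, *Rarb*, *Rxra*, *Nr2f1* and *Nr2f2*. Each symbol matched 1 row of the table. The RNA came from mouse heart ventricles at embryonic day 9.5 (E9.5) and was read as polyadenylated RNA in single reads of 60 bases. The series holds 4 WT samples and 4 samples labelled Nrg-1flox;Tie2-Cre, called mutant below. In the mutant, a floxed allele of *Nrg1*, the gene of the growth factor neuregulin-1, is deleted by Cre recombinase made under the *Tie2* promoter, which is active in endothelial cells, the endocardium that lines the heart among them. The strain, the number of *Nrg1* copies deleted, the alleles of the WT embryos and whether embryos were pooled are not given in the labels. Nothing in them says that the samples of a genotype were separate litters, so the p-values measure the spread between these samples. The question put to the 9 genes was whether the transcripts for making, breaking down and sensing retinoic acid, and those of the inflow factors *Nr2f1* and *Nr2f2*, differed between mutant and WT ventricles.

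Retinoic acid is made from vitamin A in a pair of oxidation steps: retinol to retinaldehyde, and retinaldehyde to retinoic acid. It is bound in the cytoplasm by small carrier proteins, is inactivated by enzymes of the CYP26 family, and acts through nuclear receptors of the RAR family paired with RXR. In the embryonic heart it is known for setting the posterior, inflow and atrial side, and the epicardium is a known source. The COUP transcription factors *Nr2f1* and *Nr2f2* belong to the same receptor superfamily, and *Nr2f2* is known for its role in atrial and venous identity.

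Total expected counts ranged from 11852372 to 14360323 in WT and from 12430368 to 14223860 in mutant. *Nrg1* was lower in mutant ventricles, at 5.17, 4.27, 5.11 and 5.94 CPM (expected counts scaled to a library size that TMM adjusts) in mutant replicates 1 to 4 against 11.9, 9.38, 9.94 and 11.7 in WT replicates 1 to 4. The labels and this gene therefore go the same way in all 8 samples (edgeR quasi-likelihood log2 fold change -1.07, SE 0.14, adjusted p = 0.00268). The ventricular label was checked with *Myl2*, a ventricular myosin light chain, at 1650 to 2758 CPM in mutant and 1920 to 2352 in WT, and the atrial gene *Sln* was at most 0.509 CPM in any sample. Other genes of the atrial and inflow list were abundant in all samples (*Myl7* 1901 to 2815 CPM, *Myl4* 1834 to 2679), so the share of atrial or inflow cells cannot be read from these genes. All 10 genes of an erythroid list passed as higher in mutant (edgeR false discovery rate 0.05), beside 5.11% of all genes tested. Their median log2 fold change was 2.44, and every mutant sample was above every WT sample in their sum. Mutant replicate 1 also stood apart from the other mutant samples. Its 10 erythroid genes summed to 62180 CPM, while this sum lay between 17530 and 36590 for mutant replicates 2 to 4 and between 6069 and 7322 for WT. It was also the highest or the lowest mutant sample for 8 of the 9 genes, *Aldh1a2* being the exception, so the results of the 9 genes are given with it and, where it moves them, without it.

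None of the 9 genes passed a false discovery rate of 0.05, and for none of them were the CPM values of the genotypes separate. Over all 14451 genes tested, 1245 passed (8.62%) and 2741 had values that did not overlap between genotypes (19.0%). At an unadjusted p under 0.05 there were 3 of 9, *Aldh1a2*, *Crabp1* and *Rarb*, beside 25.0% of all genes tested. DESeq2, limma-voom and the edgeR likelihood ratio test also gave 0 of 9 after adjustment, with 4, 3 and 4 genes at an unadjusted p under 0.05. That unadjusted count depended on the setting: it was 5 without a filter on low counts, 1 without mutant replicate 4, WT replicate 3 or WT replicate 4, and 2 without WT replicate 1 or WT replicate 2. The fitted difference was positive in mutant for 3 genes (*Aldh1a2*, *Cyp26b1*, *Dhrs3*) and negative for 6, with a median log2 fold change of -0.04 beside -0.0014 over all genes tested. In bulk ventricles, fewer cells of a type and less RNA per cell cannot be told apart.

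**Figure D1:**
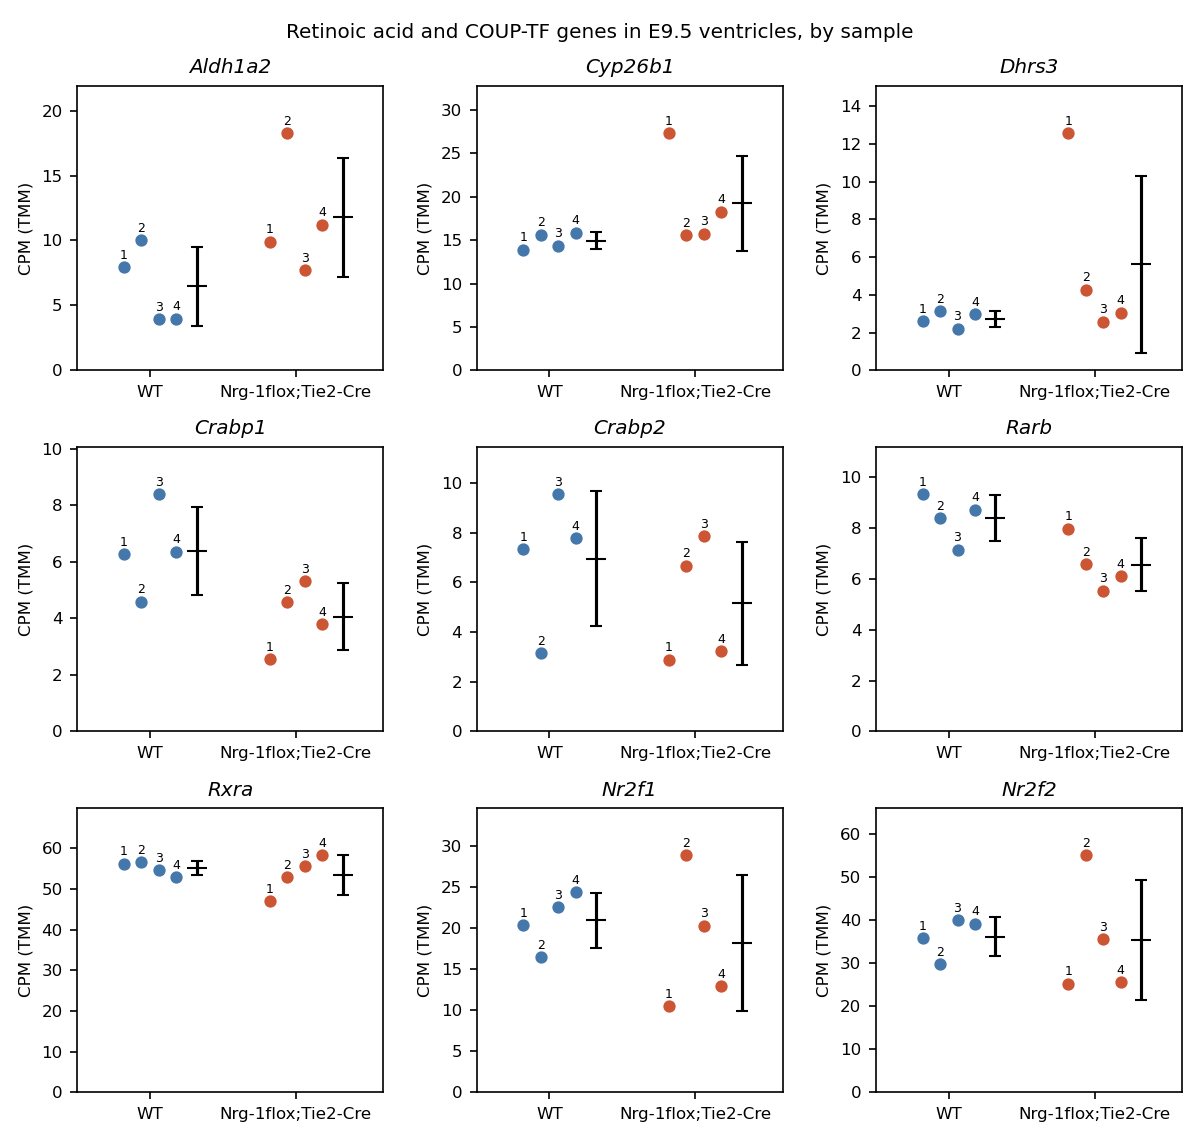
TMM-scaled CPM of the 9 genes in the 4 WT and 4 mutant samples, numbered by replicate, with bars for the mean and SD of each genotype. The genotypes overlap in every panel, and mutant replicate 1 is the highest sample of all for *Dhrs3* (12.6 CPM) and *Cyp26b1* (27.3 CPM).

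Levels of different genes were compared per length, as counts per kilobase of annotated exon, in WT. These rates were rescaled so that they have the same sum over all genes in each sample, as in TPM, and so they are not CPM divided by length. *Rxra* was at 30.9 ± 0.806 (SD, n = 4), followed by *Crabp1* at 24.5 ± 6.15, *Crabp2* at 16.2 ± 6.38, *Nr2f2* at 12.9 ± 1.73, *Nr2f1* at 12.6 ± 2.11, *Aldh1a2* at 8.75 ± 4.02, *Cyp26b1* at 8.56 ± 0.529, *Rarb* at 4.89 ± 0.511 and *Dhrs3* at 2.86 ± 0.416. From *Rxra* down to *Cyp26b1*, each gene's 4 samples overlapped with those of the next. The ranges were apart for the last steps, *Cyp26b1* (lowest sample 7.94) over *Rarb* (highest 5.41), and *Rarb* (lowest 4.21) over *Dhrs3* (highest 3.27). The length used mattered for this order: with the longest transcript in place of all exons, *Nr2f2* came to 20.5 and *Nr2f1* to 15.6. *Crabp1* then had 19.1 and *Crabp2* 17.9, so the mean of *Nr2f2* was above both. *Cyp26b1* (7.96) was then above *Aldh1a2* (6.84), with *Rarb* at 6.47. With all exons the other ubiquitous receptors *Rara* (29.4) and *Rxrb* (29.8) were near *Rxra*. The scale is not adjusted by TMM and was not used to compare genotypes, which it would order differently. On it *Rara* (25.8 to 31.7 in mutant and 26.6 to 31.03 in WT) and *Rxrb* (27.9 to 36.4 and 28.0 to 31.5) overlapped. *Rxra* (20.2 to 27.5 and 29.7 to 31.5) and *Rarb* (2.76 to 3.56 and 4.21 to 5.41) were lower in all mutant samples. So were *Rdh14* (31.8 to 33.5 and 39.2 to 44.9) and *Ncoa2* (10.3 to 11.85 and 12.1 to 13.9), other retinoid pathway genes whose CPM overlapped. This order is therefore not particular to *Rxra* and *Rarb*, while *Aldh1a1* had a higher mean in mutant (7.89 against 7.19).

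**Figure D2:**
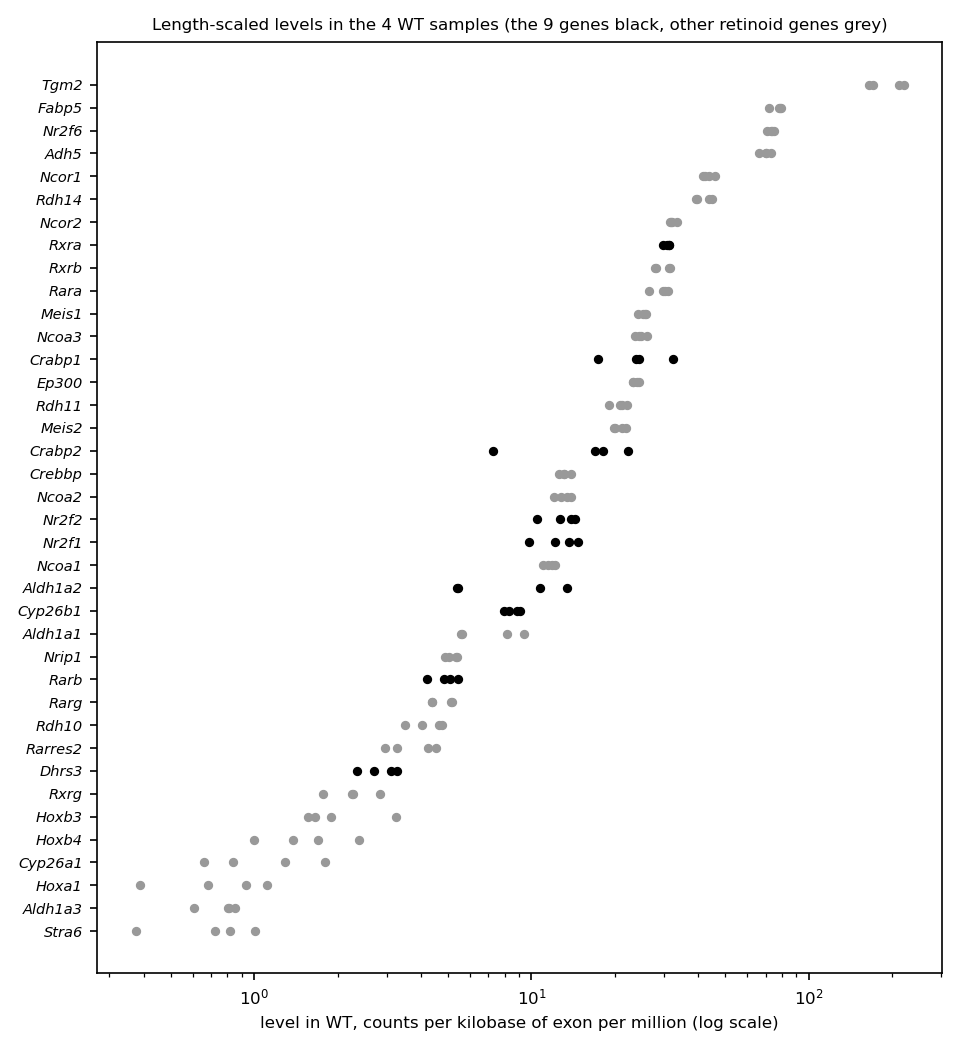
Counts per kilobase of exon, rescaled to the same sum over all genes, in the 4 WT samples on a log axis, 1 dot per sample, for the 9 genes (black) and other genes of the retinoid pathway (grey). *Rxra* was highest of the 9 at a mean of 30.9, *Dhrs3* lowest at 2.86, and among the black rows *Aldh1a2* and *Crabp2* spread widest relative to their means.

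*Aldh1a2* (chr9:71215789-71296243, plus strand, GRCm38) encodes retinaldehyde dehydrogenase 2, which makes retinoic acid and is the main such enzyme of the early embryo. Its CPM was 9.92, 18.2, 7.70 and 11.2 in mutant replicates 1 to 4 and 7.94, 10.03, 3.95 and 3.99 in WT. Mutant replicate 2 had the highest value and WT replicates 3 and 4 the lowest, while the other 5 samples lay between 7.70 and 11.2 in both genotypes. The fitted level in mutant was 1.82 times that in WT (95% interval 1.06 to 3.11), a log2 fold change of 0.86 with SE 0.35 and an edgeR adjusted p of 0.16. WT differed from sample to sample as much as mutant did, with a coefficient of variation of 46.6% and 38.7%. The estimate stayed positive with each sample left out in turn, from 0.57 without mutant replicate 2 to 1.15 without WT replicate 2, and the adjusted p ranged from 0.101 to 0.33 over those fits.

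*Aldh1a2* was set beside 10 markers of the epicardium and proepicardium, of which 9 were tested. *Wt1*, a transcription factor of the epicardium, rose (log2 fold change 0.57, edgeR adjusted p = 0.0126), as did *Tbx18* (0.50, adjusted p = 0.0315, passing in 4 of 8 fits with a sample left out), beside 5.11% of all genes tested that rose. All 9 fitted differences were positive, with a median of 0.50, and the summed CPM of the list was 305.5 to 507.4 in mutant and 208.4 to 273.7 in WT. *Msln*, the untested member, was at or below 1.19 CPM. *Krt19* made up 288.9 of the 507.4 in mutant replicate 1, and its log2 fold change went from 1.12 (edgeR adjusted p = 0.0872) to 0.56 without that library, where it passed (adjusted p = 0.0291). The part of these cells in the *Aldh1a2* values was not tested.

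Of the 9 markers, the one with the highest Pearson correlation with *Aldh1a2* over the 8 samples was *Upk3b*, a uroplakin of the mesothelial surface. It had 47.1, 111.6, 61.5 and 80.4 CPM in mutant and 62.3, 60.1, 25.0 and 28.8 in WT (log2 fold change 0.77, edgeR adjusted p = 0.192). WT replicates 3 and 4 were the lowest and mutant replicate 2 the highest, as for *Aldh1a2*. The ratio of *Aldh1a2* to *Upk3b* counts was 0.160 ± 0.0376 (SD, n = 4) in mutant and 0.148 ± 0.0179 in WT, and the ranges overlapped (0.125 to 0.211 and 0.128 to 0.167).

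After each genotype's mean log2 CPM was subtracted, *Aldh1a2* and *Upk3b* had a Pearson r of 0.91 and a Spearman rho of 0.86 over the 8 samples (exact permutation within genotypes, two-sided, p = 0.033 and p = 0.0278). Adjusted over the 9 markers these were p = 0.0651 and p = 0.0625 by the same exact permutation test. Without mutant replicate 2 and WT replicate 2, the samples farthest from the median of *Aldh1a2*, r was 0.85. By Spearman's rho *Upk1b* was ahead (rho = 0.88), as it was without those samples (r = 0.95). By Pearson's r, *Upk1b* (r = 0.89), *Bnc1* (0.84), *Sema3d* (0.83), *Gpm6a* (0.78), *Tbx18* (0.72) and *Tcf21* (0.69) followed. For *Wt1* r was 0.55 and rho 0.21, and for *Krt19* r was -0.12, so the markers that rose, *Wt1* and *Tbx18*, were not those nearest to *Aldh1a2*. No Pearson p of the 9 passed 0.05 after adjustment, and of the Spearman values that of *Gpm6a* did (rho = 0.79, exact permutation adjusted p = 0.0469).

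**Figure D3:**
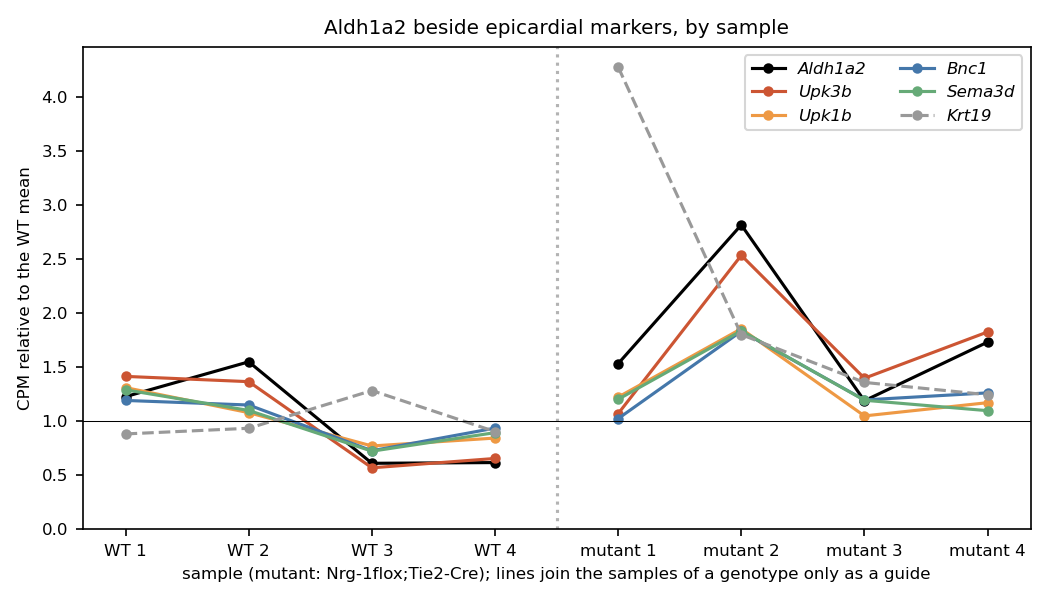
CPM of *Aldh1a2* and of 5 epicardial markers in each sample, divided by the gene's WT mean, which is drawn at 1. Of the 9 tested markers, *Upk3b*, *Upk1b*, *Bnc1* and *Sema3d* had the highest Pearson r with *Aldh1a2* and *Krt19* the lowest. The others are not drawn, among them *Wt1*, at 29.9 to 32.1 CPM in WT and 39.3 to 56.3 in mutant. *Aldh1a2*, *Upk3b*, *Upk1b*, *Bnc1* and *Sema3d* are low in WT replicates 3 and 4 and highest in mutant replicate 2, while *Krt19* is highest in mutant replicate 1.

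Other enzymes of synthesis did not pass either. *Rdh10*, which oxidises retinol in the embryo, was at 4.66 to 6.02 CPM in mutant and 4.73 to 6.49 in WT (log2 fold change -0.10, edgeR adjusted p = 0.742). *Aldh1a1*, a retinaldehyde dehydrogenase like *Aldh1a2*, had 10.3, 21.9, 11.5 and 15.2 CPM in mutant and 15.2, 13.3, 8.88 and 8.99 in WT (0.35, adjusted p = 0.444). Its highest sample, mutant replicate 2, and its low WT samples 3 and 4 were those of *Aldh1a2*. *Aldh1a3* was near 1 CPM throughout, from 0.719 to 1.28 (-0.35, adjusted p = 0.431). Of the 8 genes of retinol oxidation and the 7 of uptake and storage, 4 and 2 were tested and none passed. *Rpe65*, an enzyme of the visual cycle, had 0 counts in all 8 samples.

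*Dhrs3* (chr4:144892827-144928209, plus strand) encodes a reductase that turns retinaldehyde back into retinol and is known to limit retinoic acid. Its CPM was 12.6, 4.27, 2.59 and 3.05 in mutant and 2.60, 3.15, 2.22 and 2.97 in WT. Mutant replicate 1 was far above the other 7 samples, which lay between 2.22 and 4.27. The fitted level was 2.03 times WT (95% interval 0.983 to 4.19; log2 fold change 1.02, SE 0.47, edgeR adjusted p = 0.212). Without mutant replicate 1 the log2 fold change was 0.27 (adjusted p = 0.459), so that library set most of the difference. These values rest on 27 to 44 counts per sample in WT and 36 to 148 in mutant.

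*Cyp26b1* (chr6:84571414-84593908, minus strand) encodes a retinoic acid hydroxylase. It was measured at 27.3, 15.6, 15.8 and 18.3 CPM in mutant and 13.9, 15.6, 14.4 and 15.9 in WT. WT was narrow, with a coefficient of variation of 6.395%, and mutant replicates 1 and 4 lay above all WT samples. The log2 fold change was 0.36 (SE 0.17, 95% interval -0.03 to 0.74, edgeR adjusted p = 0.232), and it was 0.14 without mutant replicate 1 (adjusted p = 0.331). The related *Cyp26a1* was at most 1.15 CPM in any sample (log2 fold change 0.01, edgeR adjusted p = 0.987) and *Cyp26c1*, at most 0.170 CPM, was not tested.

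The ratio of *Aldh1a2* to *Cyp26b1* counts, synthesis over breakdown, was 0.363, 1.17, 0.489 and 0.613 in mutant and 0.571, 0.642, 0.274 and 0.251 in WT. Mutant replicate 2 was highest and WT replicates 3 and 4 lowest, and the genotypes overlapped. Each ratio is within a sample and does not depend on its library size.

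*Crabp1* (chr9:54764748-54773110, plus strand) and *Crabp2* (chr3:87948666-87953376, plus strand) encode the cellular retinoic acid binding proteins, and CRABP2 is known to carry the ligand to its receptor. *Crabp1* was at 2.54, 4.56, 5.32 and 3.79 CPM in mutant and 6.26, 4.59, 8.38 and 6.35 in WT. Mutant replicate 3 lay above WT replicate 2, and otherwise the mutant samples were below the WT samples. The fitted level was 0.639 times WT (95% interval 0.437 to 0.935; log2 fold change -0.65, SE 0.25), with an unadjusted p of 0.0257 and an edgeR adjusted p of 0.138. It kept its sign in all fits with a sample left out, from -0.81 to -0.48, at adjusted p values from 0.106 to 0.315.

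*Crabp2* had 2.88, 6.66, 7.84 and 3.22 CPM in mutant and 7.33, 3.15, 9.53 and 7.77 in WT. Low values near 3 occurred in mutant replicates 1 and 4 and in WT replicate 2, so the genotypes were mixed. The log2 fold change was -0.42 (SE 0.39, 95% interval -1.28 to 0.45, edgeR adjusted p = 0.551). The pair went together across samples: relative to the genotype means, *Crabp1* and *Crabp2* had r = 0.91 and rho = 0.98 (n = 8, exact permutation within genotypes, two-sided, p = 0.00174 and p = 0.00347, the first being the smallest that this test can give). Adjusted over the 36 pairs of the 9 genes, these exact permutation values were p = 0.0625 and p = 0.125. Without mutant replicate 1 and WT replicate 2, r was 0.85. They lie on separate chromosomes and share no 60-base stretch of transcript, so a full-length read matches at most 1 of them without mismatch.

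Markers of neural crest and pharyngeal mesenchyme, a tissue where *Crabp1* is known to be strong, were summed beside this pair. The sum over 8 genes was 26.0 to 35.7 CPM in mutant and 37.4 to 40.3 in WT, without overlap. None of the 4 tested members passed, and 2 of the fitted differences were positive (*Sox10*, *Ngfr*) and 2 negative (*Twist1*, *Prrx1*). Of the defining crest genes, *Foxd3* and *Tfap2b* were at or near 0 in all samples, *Tfap2a* was at 0.153 to 0.495 CPM and *Sox10* at 0.229 to 0.986 CPM over the 8 samples. *Twist1*, a mesenchymal factor, made up most of the sum, at 18.9 to 29.1 CPM in mutant and 26.96 to 32.02 in WT (log2 fold change -0.23, edgeR adjusted p = 0.304). The part of these cells in the *Crabp1* values was not tested.

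*Rarb* (chr14:16430839-16819156, minus strand) encodes retinoic acid receptor beta and is itself a known target of retinoic acid, through a repeat of the receptor's hexamer spaced by 5 bases (DR5) at an internal start site. To show that element in this gene, the 300 bases around the start (chr14:16575427-16575726, minus strand, 250 before and 50 after, RefSeq on GRCm38.p6) are printed with the DR5 in capitals. The hexamer was searched on both strands as the consensus AGGTCA, and the known variants were accepted in either place of the repeat. These variants were AGTTCA, which is the downstream copy in *Rarb*, the form GGGTCA, and lastly GGTTCA, which is the upstream copy in *Rarb*.

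Rarb: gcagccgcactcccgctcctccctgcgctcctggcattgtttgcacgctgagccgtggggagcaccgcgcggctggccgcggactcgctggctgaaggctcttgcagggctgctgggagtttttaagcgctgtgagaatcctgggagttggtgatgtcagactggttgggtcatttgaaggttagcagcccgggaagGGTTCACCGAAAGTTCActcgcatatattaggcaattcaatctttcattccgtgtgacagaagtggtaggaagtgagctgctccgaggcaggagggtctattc

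The repeat lay at -53 to -37 from the start. Of 32851 RefSeq promoters of this length, 32 held such a DR5 (0.0974%), and 73 and 88 held the same hexamers spaced by 1 and 2 bases (0.222% and 0.268%). Promoters were listed for 8 of the 9 genes, *Crabp2* being without an entry, and among those 8 the *Rarb* window alone held any of these repeats. The accepted hexamers include both copies of the *Rarb* element, so its match was fixed in advance and is not a result of the search. The hexamer by itself was in 43.7% of promoters. The breakdown enzyme *Cyp26a1* also had a DR5, on the minus strand at -32 to -16 of its window (chr19:37697558-37697857, plus strand), and both are set out below with the hexamers in capitals for comparison.

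Rarb: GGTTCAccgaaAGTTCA
Cyp26a1: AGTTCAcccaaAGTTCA

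*Rarb* CPM was 7.97, 6.59, 5.54 and 6.10 in mutant and 9.32, 8.38, 7.15 and 8.72 in WT. Mutant replicate 1 lay above WT replicate 3, and apart from that pair the genotypes were separate. The fitted level was 0.779 times WT (95% interval 0.622 to 0.976), a log2 fold change of -0.36 with SE 0.15, an unadjusted p of 0.0331 and an edgeR adjusted p of 0.159. Without mutant replicate 1 the log2 fold change was -0.47 and passed (adjusted p = 0.0383), which no other fit of *Rarb* with a sample left out did (up to 0.342).

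At its 3′ end *Rarb* shares 1793 exon bases with *Top2b*, a DNA topoisomerase gene on the opposite strand, and 30.2% of the 60-base stretches of its transcripts are also found in *Top2b*. *Top2b* was at 201.3 to 220.5 CPM in mutant and 225.4 to 247.8 in WT (log2 fold change -0.17, edgeR adjusted p = 0.0781). The library kit does not mark strand, so reads from the shared bases cannot be told apart, and the *Rarb* values are uncertain to that extent.

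*Rxra* (chr2:27676440-27762957, plus strand), the common partner of the retinoic acid receptors, was the steadiest of the 9. It had 46.9, 52.9, 55.5 and 58.2 CPM in mutant and 56.1, 56.6, 54.5 and 52.9 in WT. Mutant replicate 1 was lowest and mutant replicate 4 highest, with the WT samples between them. The fitted level was 0.970 times WT (95% interval 0.869 to 1.08; log2 fold change -0.04, SE 0.07, edgeR adjusted p = 0.749).

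Among the receptors outside the 9, *Rara* and *Rxrb* rose. *Rxrb* was at 47.1, 51.0, 54.3 and 48.5 CPM in mutant and 36.4, 41.1, 40.4 and 36.4 in WT, with all mutant samples above all WT samples (1.302-fold, log2 fold change 0.38, SE 0.07, edgeR adjusted p = 0.0099). *Rara* was at 47.9, 47.6, 52.7 and 50.4 in mutant and 43.2, 42.9, 43.7 and 37.8 in WT, also without overlap (1.19-fold, log2 fold change 0.24, edgeR adjusted p = 0.0478). The call for *Rara* was at the threshold: it was lost in 6 of 8 fits with a sample left out and in 4 of the other 9 alternatives (adjusted p up to 0.129 and 0.11), while that for *Rxrb* held in all of them. *Rarg* had all mutant samples below WT, at 4.20 to 6.02 against 6.08 to 7.18 CPM (log2 fold change -0.31, adjusted p = 0.226), and *Rxrg*, at most 2.14 CPM, had -0.63 (adjusted p = 0.195), or -0.85 without mutant replicate 1 (adjusted p = 0.0649). The list of other receptors and binding proteins thus held 2 of 6 that rose and 0 that fell, beside 5.11% and 3.50% of all genes tested.

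**Figure D4:**
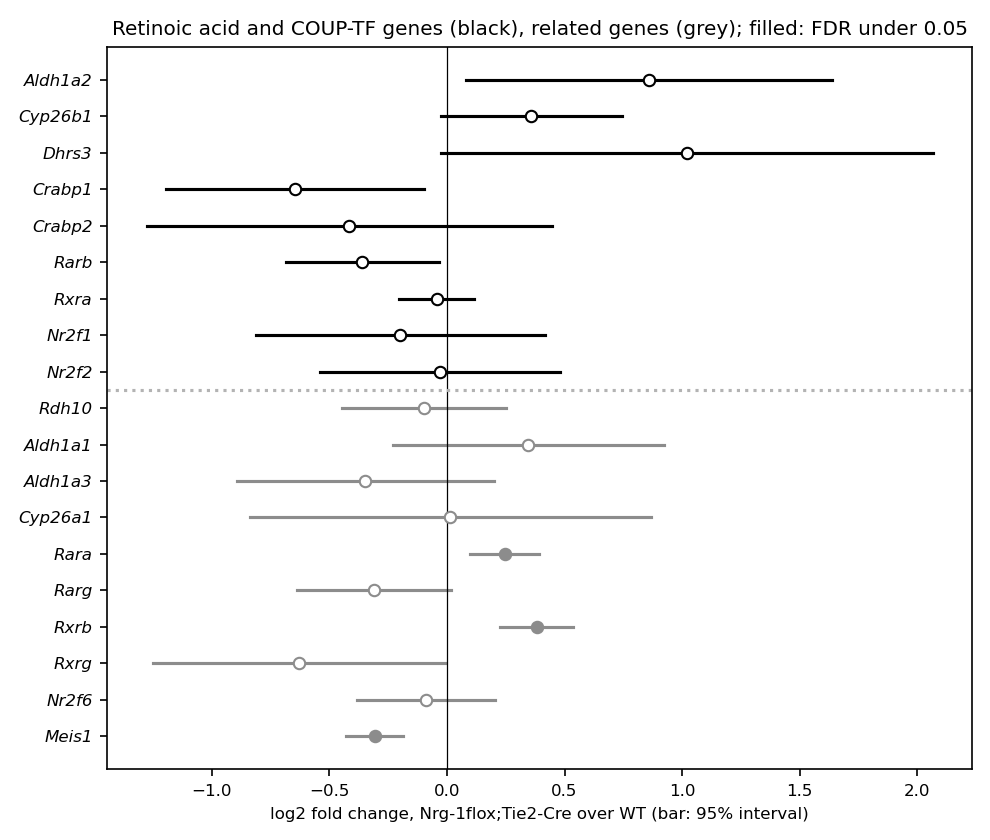
Log2 fold changes, mutant over WT, with 95% intervals for the 9 genes (black) and for related retinoid genes (grey), from the edgeR quasi-likelihood fit, with filled points for a false discovery rate under 0.05. *Rara* (0.24), *Rxrb* (0.38) and *Meis1* (-0.31) are filled, and none of the 9 genes is.

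*Nr2f1* (chr13:78188973-78199757, minus strand) encodes COUP-TFI. It had 10.5, 28.8, 20.3 and 12.9 CPM in mutant and 20.3, 16.5, 22.5 and 24.3 in WT. The WT samples lay inside the mutant range, with mutant replicate 2 above and mutant replicates 1 and 4 below them. The log2 fold change was -0.20 (SE 0.28, 95% interval -0.81 to 0.42, edgeR adjusted p = 0.705), and the coefficient of variation was 45.4% in mutant and 16.2% in WT.

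*Nr2f2* (chr7:70351944-70366735, minus strand) encodes COUP-TFII. Its CPM was 25.2, 55.0, 35.5 and 25.6 in mutant and 35.8, 29.8, 39.9 and 39.1 in WT. The order of the mutant samples was that of *Nr2f1*, replicate 2 highest and replicates 1 and 4 lowest. The fitted level was 0.980 times WT (95% interval 0.688 to 1.40; log2 fold change -0.03, SE 0.23, edgeR adjusted p = 0.955). The sign turned with the samples used, from -0.32 without mutant replicate 2 to 0.11 without mutant replicate 1. The coefficient of variation was 39.5% in mutant and 12.7% in WT, and the difference in spread was not tested.

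The COUP factors went together. Relative to the genotype means, r was 0.97 and rho 0.90 (n = 8, exact permutation within genotypes, two-sided, p = 0.00347 and p = 0.0139), and adjusted over the 36 pairs these exact permutation values were p = 0.0625 and p = 0.25. Without mutant replicates 1 and 2, r was 0.98. The ratio of *Nr2f2* to *Nr2f1* counts was 2.40, 1.91, 1.75 and 1.98 in mutant and 1.76, 1.81, 1.77 and 1.61 in WT, so it varied far less than the levels did. The genes share no 60-base stretch with each other. *Nr2f1* shares 0.904% of such stretches with the antisense gene A830082K12Rik and *Nr2f2* 6.80% with B130024G19Rik, whose counts were at most 52 and 12 per sample. *Nr2f6*, the related receptor EAR2, was at 46.6, 75.4, 73.9 and 71.1 CPM in mutant and 69.1 to 73.4 in WT (log2 fold change -0.09, edgeR adjusted p = 0.722).

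Atrial and inflow markers were set beside the COUP factors. Of 12 genes, 11 were tested, *Tbx18* rose, and *Angpt1* (log2 fold change -0.39, edgeR adjusted p = 0.0382) and *Bmp10* (-0.57, adjusted p = 0.0159) fell, both of which are also made by ventricular cells at this stage, beside 5.11% of all genes tested that rose and 3.50% that fell. Their summed CPM was 5415 to 6763 in mutant and 6240 to 6640 in WT, and mutant replicate 2, the highest sample for both COUP factors, was also highest here, with mutant replicate 1 lowest in each case. The myosin light chain genes *Myl7* (2611 CPM) and *Myl4* (2679 CPM) made up most of the 6763 in mutant replicate 2. *Shox2*, a factor of the sinus node and sinus horns, was at 11.5, 15.9, 6.62 and 1.90 CPM in mutant and 4.81, 1.504, 7.81 and 6.42 in WT (0.82, edgeR adjusted p = 0.426). Of 5 venous markers none passed, with sums of 214.1 to 248.9 in mutant and 241.4 to 270.3 in WT. The endothelial lineage is that in which the *Tie2* promoter drives Cre, and *Tek* is another name of *Tie2*. Of 10 endothelial markers, *Tek* fell (-0.34, edgeR adjusted p = 0.031), beside 3.50% of all genes tested that fell. Of the fitted differences 8 were negative, and 5 had an unadjusted p under 0.05, beside 25.0% of all genes tested. Those 5 were *Cdh5*, *Kdr*, *Tek*, *Nfatc1* and *Npr3*, all lower. The summed CPM of the 10 markers was 892 to 977.8 in mutant and 1025 to 1106 in WT, without overlap. With a sample left out in turn, the calls of *Tbx18* and *Bmp10* held in 4 of 8 fits and those of *Angpt1* and *Tek* in 2 of 8. The part of atrial, inflow or venous cells in the spread of *Nr2f1* and *Nr2f2* was not tested.

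Genes known to respond to retinoic acid were counted from a written list of 17, of which 10 were tested. *Meis1*, a homeobox factor, fell, with 68.1, 72.5, 71.0 and 68.9 CPM in mutant and 87.2, 90.0, 82.2 and 87.9 in WT (0.808-fold, log2 fold change -0.31, SE 0.05, edgeR adjusted p = 0.0085). The mutant samples were all below the WT samples, and the call held in all alternatives, samples left out included. None rose, and over all genes tested 3.50% fell and 5.11% rose. The related *Meis2* had -0.08 (edgeR adjusted p = 0.405) and *Tgm2*, a transglutaminase gene and the most abundant of the list per length, 0.06 (adjusted p = 0.775). The *Hox* genes of the list were near the floor in both genotypes: *Hoxb3*, the highest, had 0.659 to 4.03 CPM in mutant and 2.14 to 4.51 in WT, and *Hoxb1*, *Hoxa2*, *Hoxa3*, *Hoxa4*, *Hoxa5* and *Hoxb5* were not tested for low counts.

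None of the 8 receptor cofactors passed. *Nrip1*, a corepressor known to be induced by retinoic acid, had all mutant samples above WT, at 22.01 to 31.96 CPM against at most 20.2 (log2 fold change 0.37, edgeR adjusted p = 0.102). Over the 48 pathway genes outside the 9, 30 were tested, 2 rose and 1 fell, beside 5.11% and 3.50% of all genes tested, with 17 positive and 13 negative differences and a median log2 fold change of 0.05. *Rarres2*, known as a retinoid-responsive gene, was at 12.4 CPM in mutant replicate 1, at most 5.43 in mutant replicates 2 to 4 and at most 3.92 in WT (log2 fold change 0.91, edgeR adjusted p = 0.205), the pattern of *Dhrs3*.

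Leaving out samples in turn showed where the 9 estimates rest. *Dhrs3* and *Cyp26b1* fell toward 0 without mutant replicate 1, and the correlation between them, 0.89 over 8 samples, was 0.14 without it. *Nr2f1* lay between -0.50 (without mutant replicate 2) and -0.01 (without mutant replicate 1), and *Crabp2* between -0.69 (without mutant replicate 3) and -0.22 (without mutant replicate 1). *Aldh1a2*, by contrast, was at 0.93 without it (edgeR adjusted p = 0.101) and lowest, 0.57, without mutant replicate 2.

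**Figure D5:**
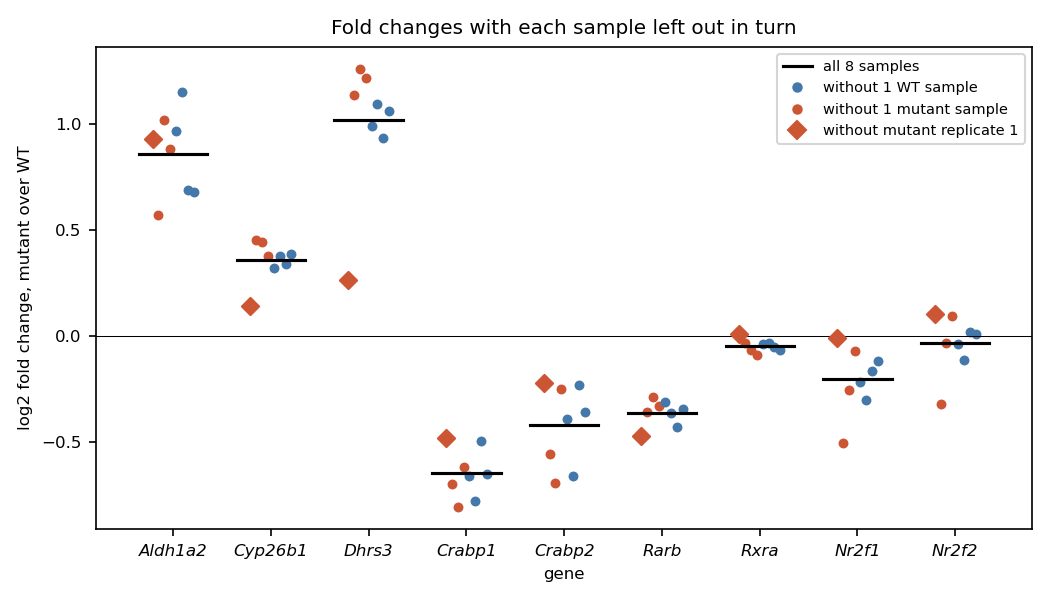
Log2 fold change of each of the 9 genes, mutant over WT, with each of the 8 samples left out in turn (dots, diamonds for mutant replicate 1), with a bar for all 8 samples. The diamond is the lowest value for *Dhrs3* (0.27) and *Cyp26b1* (0.14), and for *Nr2f2* the values lie on both sides of 0, from -0.32 to 0.11.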

How the data were processed

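The deposited values are expected counts per gene. The submitters' processing notes name cutadapt, RSEM 1.3.1 and GRCm38. The aligner and the use of strand are not given in the sources used here. RSEM divides reads that match several genes. Expected counts were rounded to whole numbers, and 53274 of 53465 gene IDs were given a symbol. Tests used edgeR 4.0.16 in R 4.3.3 (TMM, filterByExpr by genotype, quasi-likelihood test, no covariate, Benjamini-Hochberg over 14451 genes, threshold 0.05). An SE is the log2 fold change over the root of F, with 95% intervals from the moderated t. CPM is TMM-scaled. Exon lengths are from GENCODE M21. Correlations used log2 CPM with a prior count of 2, and all 576 arrangements within genotypes.

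Replicates differed beyond sampling noise (chi-square per degree of freedom at least 3.59), so each counted once. The fit was tested on simulated data. Alternatives were limma-voom (limma 3.58.1), DESeq2 1.42.0, the likelihood ratio test, other scalings and filters, a replicate block and each sample left out. The 9 genes, the pathway lists and the marker lists were chosen with earlier results of these data known. Named were the 9 genes, their paralogs, pathway genes that passed, and of each marker list those that passed; other genes were named after their values were seen. The erythroid list, with 10 of 10 genes higher beside 5.11% of all genes tested, is given by its sum and median. The values of 1 pathway gene are not reported here.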

Additional observations from a re-analysis of the deposited data

Results flagged for a closer look

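Over 58 groups of 4 samples, the gap between an extreme sample and its neighbour, divided by the group's range, both of log2 values, was above Dixon's 95% critical value for 4 samples in 4 of them. Chance flags about 1 in 20 groups, here 2.9. WT replicate 3 was the lowest for *Aldh1a3* (0.849), at 0.904 CPM with the other WT samples at 1.22 to 1.28. On CPM itself this value was 0.825 and under the critical value, while the other 3 stayed above it (from 0.848). WT replicate 4 was the lowest for *Rara* (0.872), at 37.8 CPM beside 42.9 to 43.7. Mutant replicate 1 was the lowest for *Nr2f6* (0.876), at 46.6 CPM beside 71.1 to 75.4. It was also the lowest for the summed CPM of the 8 neural crest and pharyngeal mesenchyme markers (0.934), at 26.0 beside 34.96 to 35.7.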

How the results depend on the processing

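No alternative with all 8 samples changed the count of 0 of 9 genes called in either direction. With a sample left out, the number of the 9 called lower ranged from 0 to 1, the 1 being *Rarb* without mutant replicate 1. The count of all genes called was 1245 and ranged from 509 (without WT replicate 1) to 2523 (without mutant replicate 1) with a sample left out and it was 1386 without mutant replicate 2, the sole such fit within 1.5 times of 1245. It was 616 with the replicate number as a block. Same-numbered samples did not deviate together (r from -0.0911 to 0.0187), and with 4 numbers the block left *Aldh1a2* nearest to the threshold (0.90, edgeR adjusted p = 0.0538) and took the calls of *Rara* (0.11), *Angpt1* (0.0744), *Tek* (0.0832) and *Fgf10* (0.0551). With the longest transcript, levels in WT moved by over 1 SD to 7.96 for *Cyp26b1*, 15.6 for *Nr2f1*, 20.5 for *Nr2f2*, 6.47 for *Rarb* and 26.9 for *Rxra*. Signs turned for *Cyp26a1* with upper-quartile normalization (-0.003) and, with a sample left out, for *Cyp26a1* (-0.18 to 0.29), *Nr2f2* (-0.32 to 0.11), *Nr2f6* (-0.144 to 0.0485) and *Rxra* (-0.0872 to 0.0131). The cause was not tested. At 27 to 148 counts for *Dhrs3* and 30 to 102 for *Crabp1*, counting error widens the spread, and 4 samples a genotype leave intervals that reach past 2-fold for *Aldh1a2*, *Dhrs3*, *Crabp1* and *Crabp2*.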

Other observations

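The genes of all 14451 tested whose values went most closely with each of the 9, by Pearson's r of log2 CPM over the 8 samples after subtracting genotype means, are given as a description without a test, since they were picked for it. For *Aldh1a2* these were *B3gnt9*, *Thbs2* and *Col6a2* (r of 0.96 each), the last of which encodes a chain of collagen VI. For *Nr2f1* they were *Mex3a*, *Bmp5* and *Acyp2* (0.98 each), and *Bmp5* encodes a bone morphogenetic protein. For *Nr2f2* they were *Clcn1* (0.99), *Rpa3* and *Adcy1* (0.98 each). *Crabp1* went with *Ddah2* (0.98), *Arid3b* (0.97) and *Adhfe1* (0.96), and *Crabp2* with *Parp11*, *Gm21986* (0.98 each) and *Gm36660* (0.96). For *Dhrs3* (1810010H24Rik, *Usp53*, *Gm9531*), *Cyp26b1* (*Mkrn2*, *Ing3*, *Gm13378*) and *Rxra* (*Lpar3*, *Cux2*, *Arhgef1*) r was 0.99 in each case, and mutant replicate 1 was the highest or lowest mutant sample of each of these 3 genes. *Rarb* went with *Cage1* (0.99), *Rpl10-ps3* and *Gm45838* (0.98 each).

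The DR5 of the *Rarb* and *Cyp26a1* promoters was listed for 31 genes in all. Of these, 8 were tested, *Blvrb* and *Hbb-y* rose and none fell, beside 5.11% and 3.50% of all genes tested. *Hbb-y* (log2 fold change 2.45) is also 1 of the 10 erythroid markers, whose median was 2.44, and *Blvrb* had 2.05. The part of erythroid cells in the values of both genes was not tested.

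Of the other marker lists, 5 of 7 tested outflow and second heart field genes fell (*Fgf10*, *Rspo3*, *Sema3c*, *Mef2c* and *Hand1*), with sums of 228.8 to 265.9 CPM in mutant and 336.9 to 363.5 in WT. Over all genes tested, 3.50% fell. With a sample left out, *Hand1* passed in 5 of 8 fits, *Fgf10* in 7 of 8 and the others in all 8. None of 12 cardiomyocyte genes passed (sums of 34770 to 38030 and 36390 to 39120), nor did the 2 tested of 8 neural and paraxial genes (30.1 to 33.2 and 26.5 to 34.2) or the 1 tested of 8 hepatic, yolk sac and gut endoderm genes (1.44 to 7.80 and 1.35 to 2.79). *Afp*, of the last list, was at 5.34 CPM in mutant replicate 1 and 2.32 in mutant replicate 2, and at most 0.329 in the other 6 samples.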
